A study of Bos indicus x Bos taurus with 20 samples.

Results

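The splicing factor genes described here are the 54 genes whose symbol starts with SRSF, SNRP, HNRNP, SF3A or SF3B, or is U2AF1 or U2AF2. They were taken by symbol from the 30675 gene rows of the 2-cell and 8-cell count table of the study. All 54 passed the filter on low counts and belong to the 16149 genes tested. They comprise 12 SNRP, 11 SRSF, 20 HNRNP, 6 SF3B, 3 SF3A and 2 U2AF genes.

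Splicing removes introns from pre-mRNA and is carried out by the spliceosome, which is built from small nuclear ribonucleoproteins (snRNPs). In a snRNP, a ring of Sm proteins holds a small nuclear RNA. The U1 snRNP binds the start of an intron, U2AF binds its end, and the U2 snRNP, with its SF3a and SF3b subcomplexes, binds the branch point between them. SR proteins, made by the SRSF genes, mostly promote the use of nearby exons, and many heterogeneous nuclear ribonucleoproteins (hnRNPs) bind pre-mRNA and repress them. In cattle the major activation of the embryonic genome falls around the 8-cell stage, and before it the embryo lives largely on RNA stored in the oocyte.

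The study injected bovine zygotes (Bos indicus x Bos taurus, labelled WT) with METTL7A mRNA or with vehicle and sequenced polyA RNA of the resulting embryos. METTL7A is a putative methyltransferase of the endoplasmic reticulum and lipid droplets. The 4 groups used here are METTL7A 8-cell, METTL7A 2-cell, Control 8-cell and Control 2-cell, with 2 libraries each. Every embryo was injected, Control embryos with vehicle alone, so an effect of METTL7A cannot be told apart from an effect of injecting any mRNA. The number of embryos in a library and whether replicates are separate pools are not in the labels. The p-values therefore cover the variation among these 8 libraries alone, and part of it may be technical.

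The 8 libraries held 15781017 to 20737404 gene counts, and 17914 to 20242 genes had at least 1 count. METTL7A took 1.61% and 2.74% of the counts of METTL7A 8-cell libraries and 5.23% and 4.68% of those of METTL7A 2-cell libraries, against at most 0.00223% in any Control library. All 12 oocyte markers reached 1 CPM (a count scaled to library size) in every library. All 10 markers of genome activation reached it in every 8-cell library, where their summed level was 9630 and 13096 CPM in METTL7A 8-cell and 2684 and 7240 CPM in Control 8-cell libraries, against 140 to 175 CPM in 2-cell libraries. Control 8-cell replicate 1 stood apart: 18 somatic cell markers summed to 6063 CPM in it, against 1197 CPM in Control 8-cell replicate 2 and 224 to 502 CPM in the other 6 libraries. The somatic marker LUM alone had 4782 and 667 CPM in the Control 8-cell libraries and at most 1.51 CPM elsewhere, whereas CD34 was at 0 in 7 of 8 libraries. Results that rest on this library are given with and without it.

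At the 8-cell stage most splicing factor genes were more abundant than at the 2-cell stage, in METTL7A-injected and in Control embryos. In METTL7A embryos 34 of 54 rose and 1 fell (edgeR quasi-likelihood test, Benjamini-Hochberg adjusted p under 0.05), where 23.1% of all genes tested rose and 17.1% fell. In Control embryos 33 of 54 rose and 4 fell, where 29.9% of all genes rose and 22.8% fell. The median log2 fold change of the 54 genes was 1.72 in METTL7A and 1.502 in Control embryos, beside 0.04 and 0.18 over all genes tested. The Control median was 1.13 without Control 8-cell replicate 1 and 1.46 without Control 8-cell replicate 2, beside 0.09 and 0.14 over all genes. The METTL7A median was 1.975 without METTL7A 8-cell replicate 1 and 1.33 without METTL7A 8-cell replicate 2, beside -0.02 and 0 over all genes. Both 8-cell libraries lay above both 2-cell libraries for 41 of the 54 genes in METTL7A and 38 in Control embryos. Of all genes tested, 38.5% and 40.8% did so. Both lay below for 4 and 11 of the 54, beside 37.1% and 38.1% of all genes. Of the genes that rose, 31 did so under both treatments, which is 91.2% of the METTL7A list and 93.9% of the Control list. These are levels relative to all polyA RNA of whole embryos, so transcript number and tail length, and changes in some or in all cells, cannot be told apart.

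**Figure D1:**
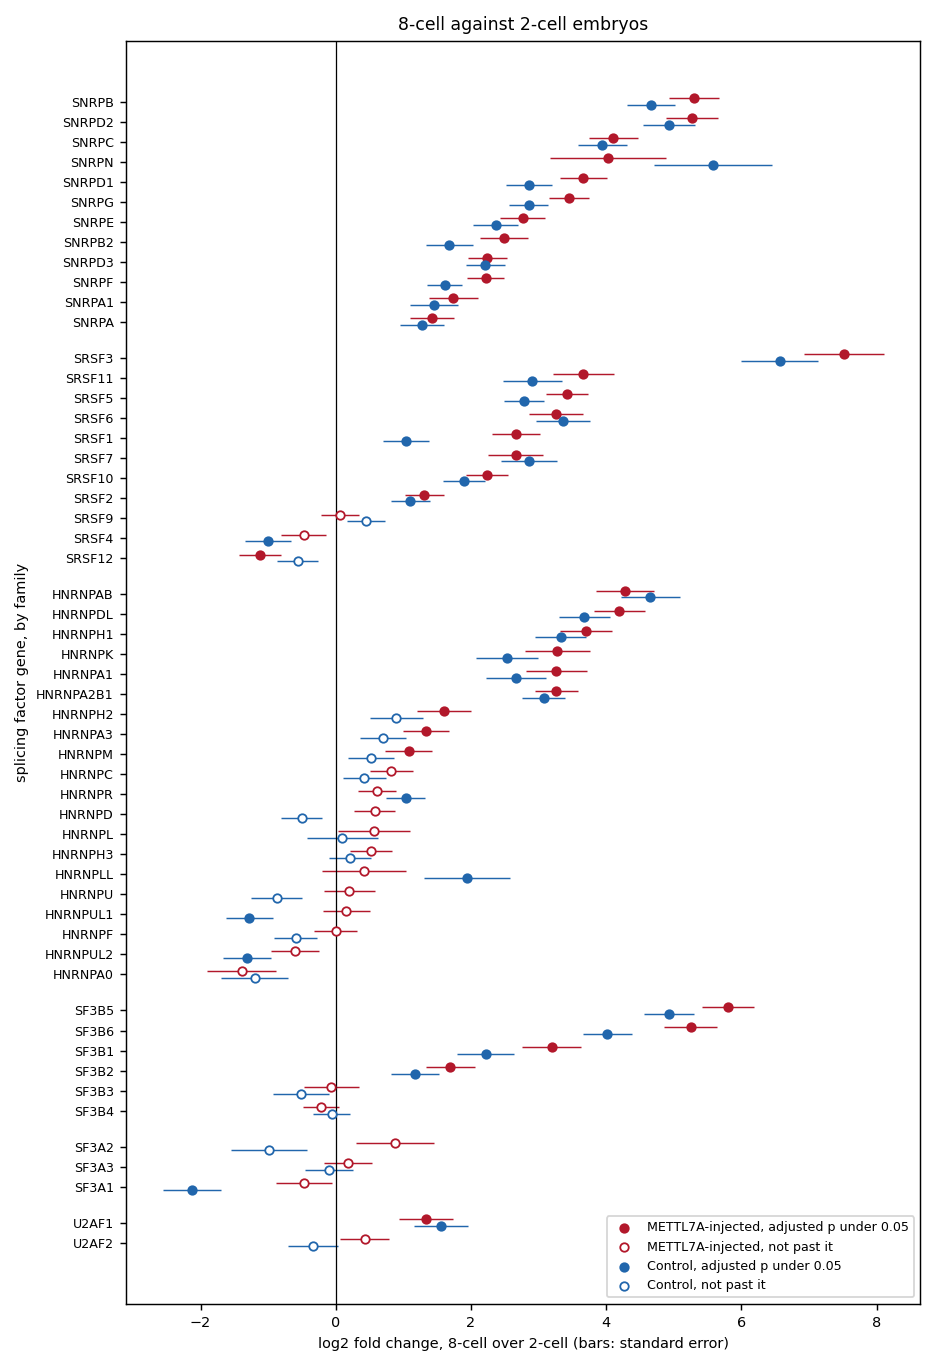
Log2 fold change of each of the 54 splicing factor genes, 8-cell over 2-cell (x axis), by family (y axis), in METTL7A-injected (red) and Control (blue) embryos. Points are edgeR estimates from 2 libraries a group and bars are standard errors, and filled points passed an adjusted p of 0.05. All 12 SNRP genes lie to the right of 0 with filled points, while the 3 SF3A genes lie near or left of 0 in Control embryos.

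All 12 SNRP genes rose at the 8-cell stage under both treatments. Their summed level was 6859 ± 832 CPM in METTL7A 8-cell against 836 ± 160 CPM in METTL7A 2-cell embryos, and 4302 ± 32.5 CPM in Control 8-cell against 722 ± 28.9 CPM in Control 2-cell embryos (SD, n = 2 each). SNRPB, which encodes the Sm proteins B and B′ of the ring, had 699 and 996 CPM in METTL7A 8-cell against 24.9 and 18.2 CPM in METTL7A 2-cell libraries. In Control embryos it had 527 and 564 CPM at the 8-cell stage against 19.6 and 23.6 CPM at the 2-cell stage. Every 8-cell library was thus far above every 2-cell library. Its log2 fold change was 5.30 in METTL7A (SE 0.366, adjusted p = 3.61e-05) and 4.66 in Control embryos (SE 0.355, adjusted p = 6.66e-05).

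SNRPD2, another Sm ring protein, had 372 and 474 CPM in METTL7A 8-cell against 12.3 and 9.56 CPM in METTL7A 2-cell libraries, and 428 and 269.7 CPM in Control 8-cell against 10.2 and 12.7 CPM in Control 2-cell libraries. The stages did not overlap, and the log2 fold change was 5.27 in METTL7A and 4.93 in Control embryos. SNRPD1, also of the Sm ring, had 1443 and 1939 CPM in METTL7A 8-cell against 155 and 113 CPM in METTL7A 2-cell libraries, and 701 and 910.1 CPM in Control 8-cell against 107 and 115 CPM in Control 2-cell libraries. Its log2 fold changes were 3.66 and 2.86 in METTL7A and Control embryos. The other ring genes SNRPD3, SNRPE, SNRPF and SNRPG rose by log2 fold changes of 2.22 to 3.45 in METTL7A and 1.61 to 2.85 in Control embryos.

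Among the SNRP genes whose proteins are specific to a single snRNP, SNRPC of the U1 snRNP moved most. It had 424 and 641 CPM in METTL7A 8-cell against 37.7 and 24.2 CPM in METTL7A 2-cell libraries, and 340.0 and 369 CPM in Control 8-cell against 23.3 and 22.9 CPM in Control 2-cell libraries. All 8-cell libraries lay above all 2-cell libraries, with log2 fold changes of 4.10 (SE 0.363, adjusted p = 7.82e-05) and 3.94 (SE 0.36, adjusted p = 0.000108). SNRPA, also of the U1 snRNP, had the smallest change of the 12, 1.43 in METTL7A and 1.28 in Control embryos on the log2 scale. SNRPA1 and SNRPB2, of the U2 snRNP, rose by 1.74 and 2.48 in METTL7A embryos and by 1.45 and 1.68 in Control embryos on that scale. The calls for SNRPA and SNRPA1 were lost in Control embryos without either Control 2-cell library (adjusted p = 0.0589 to 0.128). In METTL7A embryos SNRPA lost its call without either METTL7A 2-cell library (adjusted p = 0.0577 and 0.0665), and SNRPA1 lost it without METTL7A 8-cell replicate 2 or METTL7A 2-cell replicate 2 (0.0576 and 0.0663).

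SNRPN, the imprinted close paralogue of SNRPB known best from brain, was the SNRP gene whose replicates differed most. It had 8.20 and 8.29 CPM in METTL7A 8-cell against 0.512 and 0.487 CPM in METTL7A 2-cell libraries, and 75.0 and 10.7 CPM in Control 8-cell against 0.784 and 0.995 CPM in Control 2-cell libraries. The value of 75.0 CPM came from Control 8-cell replicate 1, the library with the high somatic markers, and was 6.98 times that of Control 8-cell replicate 2. The log2 fold change was 4.03 in METTL7A (SE 0.857, adjusted p = 0.00555) and 5.58 in Control embryos (SE 0.874, adjusted p = 0.000955). In Control embryos it was 3.57 without Control 8-cell replicate 1 and 6.34 without Control 8-cell replicate 2. In METTL7A embryos the call was lost without either METTL7A 2-cell library (adjusted p = 0.0536 without replicate 1 and 0.0644 without replicate 2). The 2-cell values rest on 9 and 11 counts in METTL7A 2-cell and 19 and 23 counts in Control 2-cell libraries, and how reads shared with SNRPB were counted is not known.

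The subunits of SF3b split into 4 genes that rose under both treatments and 2 that did not. SF3B5, a small subunit, had 378 and 568 CPM in METTL7A 8-cell against 9.84 and 7.17 CPM in METTL7A 2-cell libraries, and 385 and 306 CPM in Control 8-cell against 11.9 and 10.7 CPM in Control 2-cell libraries. With no overlap between stages, its log2 fold changes were 5.80 (SE 0.383, adjusted p = 3.49e-05) in METTL7A and 4.93 (SE 0.367, adjusted p = 6.46e-05) in Control embryos. SF3B6, whose protein lies at the branch point, had 1077 and 1454 CPM in METTL7A 8-cell against 41.5 and 25.1 CPM in METTL7A 2-cell libraries, and 549 and 600.0 CPM in Control 8-cell against 34.0 and 37.0 CPM in Control 2-cell libraries. The stages were again apart, by 5.25 in METTL7A and 4.02 in Control embryos on the log2 scale.

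SF3B1, the large subunit that encloses the branch point, had 759 and 1371 CPM in METTL7A 8-cell against 83.0 and 149.6 CPM in METTL7A 2-cell libraries, and 517 and 756 CPM in Control 8-cell against 136 and 138 CPM in Control 2-cell libraries. It rose by 3.19 in METTL7A (adjusted p = 0.000575) and 2.22 in Control embryos (adjusted p = 0.00233) on the log2 scale. SF3B2 had 33.1 and 51.0 CPM in METTL7A 8-cell against 12.8 and 13.1 CPM in METTL7A 2-cell libraries, and 53.4 and 35.6 CPM in Control 8-cell against 20.8 and 18.6 CPM in Control 2-cell libraries. Its stages did not overlap either, with log2 fold changes of 1.70 and 1.17. The call for SF3B2 was lost without either Control 2-cell library in Control embryos (adjusted p = 0.122 and 0.175) and without 3 of the METTL7A libraries in METTL7A embryos (METTL7A 8-cell replicate 2, adjusted p = 0.0533, METTL7A 2-cell replicate 1, 0.0531, and METTL7A 2-cell replicate 2, 0.0535).

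SF3B3 and SF3B4 did not pass the test. SF3B3, a scaffold of the complex, had 58.6 and 85.6 CPM in METTL7A 8-cell against 51.6 and 99.1 CPM in METTL7A 2-cell libraries, and 99.9 and 53.9 CPM in Control 8-cell against 113 and 107 CPM in Control 2-cell libraries. Its METTL7A stages overlapped, whereas both Control 8-cell libraries lay below both Control 2-cell libraries (log2 fold change -0.52, SE 0.41, adjusted p = 0.314). SF3B4, an RNA-binding subunit, stayed between 89.1 and 121 CPM in all 8 libraries, and its log2 fold changes were -0.22 (SE 0.271) in METTL7A and -0.06 (SE 0.27) in Control embryos.

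The 3 SF3A genes, whose products join SF3b on the U2 snRNP, did not rise. SF3A1 had 36.9 and 48.8 CPM in METTL7A 8-cell against 46.0 and 72.9 CPM in METTL7A 2-cell libraries, and 21.7 and 50.8 CPM in Control 8-cell against 156 and 161 CPM in Control 2-cell libraries. Only the Control 2-cell libraries were high, and the METTL7A stages overlapped. SF3A1 fell in Control embryos by 2.13 on the log2 scale (SE 0.433, adjusted p = 0.00338), and by 2.92 without Control 8-cell replicate 2. Its log2 fold change in METTL7A embryos was -0.47 (SE 0.418, adjusted p = 0.397), and the difference between the treatments in the stage effect, 1.66, did not pass the test (SE 0.593, adjusted p = 0.234). That difference was 2.42 and passed without Control 8-cell replicate 2 (adjusted p = 0.00539).

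SF3A2 had 4.36 and 6.20 CPM in METTL7A 8-cell against 2.11 and 3.63 CPM in METTL7A 2-cell libraries, and 2.98 and 7.92 CPM in Control 8-cell against 10.2 and 11.4 CPM in Control 2-cell libraries. The 8-cell libraries lay above the 2-cell libraries in METTL7A and below them in Control embryos, but neither log2 fold change, 0.87 (SE 0.574) and -0.99 (SE 0.563), passed the test. The Control value was -1.91 and passed it when Control 8-cell replicate 2 was left out (adjusted p = 0.00923). SF3A3 had 831 and 525 CPM in METTL7A 8-cell against 626 and 572 CPM in METTL7A 2-cell libraries, and 376 and 655 CPM in Control 8-cell against 563 and 542 CPM in Control 2-cell libraries. The stages overlapped under both treatments.

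U2AF1, which reads the last bases of the intron, had 23.8 and 25.0 CPM in METTL7A 8-cell against 10.9 and 8.37 CPM in METTL7A 2-cell libraries, and 35.7 and 19.96 CPM in Control 8-cell against 10.03 and 8.91 CPM in Control 2-cell libraries. It rose by 1.34 (SE 0.398, adjusted p = 0.0246) in METTL7A and 1.55 (SE 0.398, adjusted p = 0.00987) in Control embryos on the log2 scale. The call was lost in Control embryos without either Control 2-cell library (adjusted p = 0.0799 and 0.112). In METTL7A embryos it was lost without any of the METTL7A or Control 2-cell libraries, with adjusted p between 0.0819 and 0.173. U2AF2, its partner that binds the polypyrimidine tract, had 78.5 and 59.0 CPM in METTL7A 8-cell against 56.9 and 45.4 CPM in METTL7A 2-cell libraries, and 37.5 and 75.0 CPM in Control 8-cell against 69.4 and 72.7 CPM in Control 2-cell libraries. It did not pass the test under either treatment (adjusted p = 0.38 in METTL7A and 0.461 in Control embryos). With Control 8-cell replicate 2 left out, its Control log2 fold change was -0.97, beside -0.34, and passed (adjusted p = 0.0161).

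**Figure D2:**
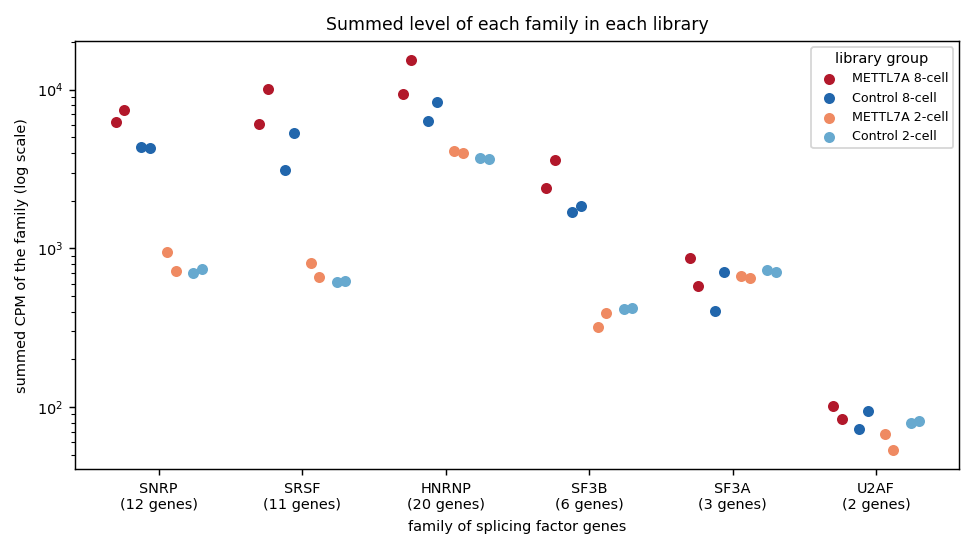
Summed level of each family in each of the 8 libraries, in CPM on a log scale (y axis), for the 6 families (x axis). The 8-cell libraries of the SNRP, SRSF, HNRNP and SF3B families all lie above the 2-cell libraries, while those of the SF3A family, from 401 to 873 CPM, overlap between stages in METTL7A embryos and are lower in Control 8-cell than in Control 2-cell embryos.

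Of the 11 SRSF genes, 8 rose under both treatments. SRSF3, the smallest of the SR proteins and a regulator of many exons, changed most of all 54 genes under both treatments. It had 3762 and 6419.9 CPM in METTL7A 8-cell against 27.8 and 27.8 CPM in METTL7A 2-cell libraries, and 1306 and 3195 CPM in Control 8-cell against 24.4 and 23.1 CPM in Control 2-cell libraries. The 4 2-cell libraries were nearly equal, whereas the Control 8-cell libraries differed by more than any METTL7A pair. The rise was 183-fold in METTL7A (log2 fold change 7.52, SE 0.594, adjusted p = 5.27e-05) and 94.7-fold in Control embryos (6.56, SE 0.569, adjusted p = 9.37e-05). Without Control 8-cell replicate 2 the Control log2 fold change was 5.73.

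SRSF10, a splicing repressor that is activated by dephosphorylation, had 1217 and 1541 CPM in METTL7A 8-cell against 331 and 257 CPM in METTL7A 2-cell libraries, and 689 and 852 CPM in Control 8-cell against 207 and 207 CPM in Control 2-cell libraries. The stages did not overlap, and SRSF10 rose by 2.23 in METTL7A and 1.90 in Control embryos on the log2 scale. SRSF5, SRSF6, SRSF7 and SRSF11 rose by 2.66 to 3.66 in METTL7A and 2.78 to 3.36 in Control embryos. SRSF11 and SRSF7 rose by 2.77 and 2.07 in METTL7A embryos without METTL7A 8-cell replicate 2. SRSF1 and SRSF2, the earliest described members of the family, rose by 2.67 and 1.31 in METTL7A and by 1.03 and 1.10 in Control embryos. The Control call for SRSF1 was lost without any 1 of 5 libraries (Control 8-cell replicate 2, either Control 2-cell or either METTL7A 2-cell library), with adjusted p from 0.0551 to 0.171. For SRSF2 it was lost without either Control 2-cell library in Control embryos (adjusted p = 0.112 for both). In METTL7A embryos it was lost without METTL7A 8-cell replicate 2 (adjusted p = 0.0539) and without METTL7A 2-cell replicate 2 (0.0784).

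The other 3 SRSF genes did not rise. SRSF12, a relative of SRSF10, had 21.0 and 20.9 CPM in METTL7A 8-cell against 48.8 and 42.3 CPM in METTL7A 2-cell libraries, and 17.2 and 20.1 CPM in Control 8-cell against 27.6 and 27.4 CPM in Control 2-cell libraries. All 8-cell libraries lay below all 2-cell libraries. SRSF12 fell in METTL7A embryos by 1.12 on the log2 scale (SE 0.306, adjusted p = 0.0172), and its log2 fold change in Control embryos was -0.56 (SE 0.303, adjusted p = 0.146). Without any of the 4 METTL7A libraries the METTL7A call was lost (adjusted p = 0.0613 to 0.0877), and without Control 8-cell replicate 2 the Control value was -0.72 and passed (adjusted p = 0.0444).

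SRSF4, a large SR protein, had 47.6 and 90.8 CPM in METTL7A 8-cell against 92.7 and 99.4 CPM in METTL7A 2-cell libraries, and 46.3 and 51.4 CPM in Control 8-cell against 98.6 and 97.1 CPM in Control 2-cell libraries. It was lower in every 8-cell library and fell in Control embryos by 1.002 on the log2 scale (SE 0.334, adjusted p = 0.0308). The call was lost without Control 8-cell replicate 1 or any 2-cell library (adjusted p = 0.0522 to 0.123). SRSF9 stayed between 62.7 and 105 CPM in the 8 libraries and did not pass the test.

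**Figure D3:**
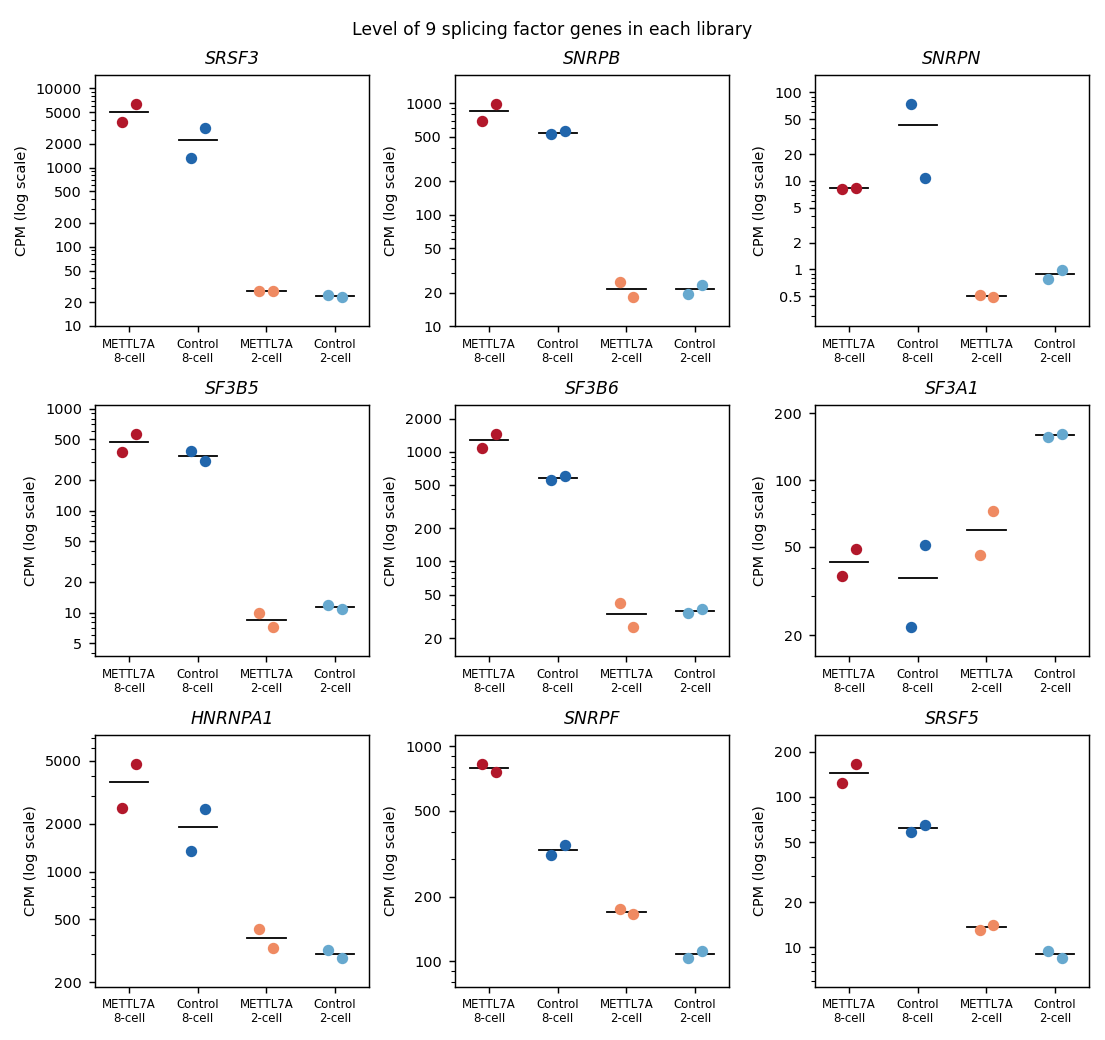
Level of 9 splicing factor genes in each library, in CPM on a log scale (y axis), with the mean of each group as a line, for METTL7A 8-cell, Control 8-cell, METTL7A 2-cell and Control 2-cell embryos (x axis). SRSF3, SNRPB, SF3B5, SF3B6 and HNRNPA1 are high in all 8-cell libraries, SNRPN has a lone high value of 75.0 CPM in Control 8-cell, and SF3A1 is high in Control 2-cell libraries.

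The 20 HNRNP genes were divided, with 9 that rose and 0 that fell in METTL7A embryos, and 8 that rose and 2 that fell in Control embryos. HNRNPAB had the largest rise among them in both, with 126 and 231 CPM in METTL7A 8-cell against 10.6 and 7.83 CPM in METTL7A 2-cell libraries, and 143 and 227 CPM in Control 8-cell against 8.21 and 6.49 CPM in Control 2-cell libraries. The stages were far apart, with log2 fold changes of 4.28 (SE 0.431, adjusted p = 0.000135) in METTL7A and 4.65 (SE 0.439, adjusted p = 0.00012) in Control embryos. HNRNPDL, a relative of HNRNPD, had 913 and 1413 CPM in METTL7A 8-cell against 67.8 and 59.4 CPM in METTL7A 2-cell libraries, and 433 and 682 CPM in Control 8-cell against 43.2 and 43.9 CPM in Control 2-cell libraries. It rose by 4.19 in METTL7A and 3.68 in Control embryos on the log2 scale, with no overlap.

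HNRNPA1, a classical splicing repressor, had 2533 and 4787 CPM in METTL7A 8-cell against 435 and 328 CPM in METTL7A 2-cell libraries, and 1344 and 2494 CPM in Control 8-cell against 319 and 287 CPM in Control 2-cell libraries. Every 8-cell library was above every 2-cell library, by 3.26 in METTL7A and 2.66 in Control embryos on the log2 scale. HNRNPA2B1, its close relative, had 1132 and 1615 CPM in METTL7A 8-cell against 149.5 and 137 CPM in METTL7A 2-cell libraries, and 1162 and 1004 CPM in Control 8-cell against 129 and 128 CPM in Control 2-cell libraries. It rose by 3.26 and 3.07. HNRNPH1 and HNRNPK, which bind G-rich and C-rich RNA, rose by 3.70 and 3.28 in METTL7A and by 3.33 and 2.53 in Control embryos. HNRNPK had 327 and 949 CPM in METTL7A 8-cell libraries, the widest replicate pair of that group, and its METTL7A log2 fold change was 2.27 without METTL7A 8-cell replicate 2.

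The 5 genes that rose under a single treatment were all HNRNP genes. HNRNPA3, HNRNPH2 and HNRNPM rose only among the METTL7A calls, by 1.33, 1.60 and 1.08 on the log2 scale, and had Control log2 fold changes of 0.69, 0.90 and 0.51. Each of these 3 calls was lost without at least 3 of the 8 libraries in turn, and HNRNPH2 was at 0.98 without METTL7A 8-cell replicate 2. HNRNPR and HNRNPLL rose only among the Control calls, by 1.03 and 1.94, and had METTL7A log2 fold changes of 0.61 and 0.42. For none of these 5 genes did the difference between the treatments pass the test (adjusted p of the difference 0.419 to 0.63). It passed without Control 8-cell replicate 2 for HNRNPLL (-2.19 on the log2 scale, adjusted p = 0.0137) and HNRNPA3 (1.18, 0.018). HNRNPA3 was also called in Control embryos without Control 8-cell replicate 1, HNRNPH2 without Control 8-cell replicate 2, and HNRNPR in METTL7A embryos without either Control 8-cell library. HNRNPLL, known for repressing exons in lymphocytes, had 7.31 and 9.80 CPM in METTL7A 8-cell and 40.1 and 9.57 CPM in Control 8-cell libraries, with the high value again in Control 8-cell replicate 1. Without that library its Control log2 fold change was 0.55 (adjusted p = 0.279). HNRNPR lost its call without either Control 2-cell library (adjusted p = 0.148 and 0.114), and HNRNPLL lost it without any library tried except Control 8-cell replicate 2 and METTL7A 2-cell replicate 1.

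Both HNRNP genes that fell in Control embryos encode relatives of HNRNPU, an RNA- and DNA-binding scaffold protein of the nucleus. HNRNPUL1 had 34.6 and 46.6 CPM in METTL7A 8-cell against 29.0 and 43.7 CPM in METTL7A 2-cell libraries, and 27.6 and 41.9 CPM in Control 8-cell against 81.5 and 87.5 CPM in Control 2-cell libraries. As for SF3A1, the Control 2-cell libraries were the high ones and the METTL7A stages overlapped. It fell by 1.28 in Control embryos on the log2 scale (SE 0.348, adjusted p = 0.013), and its log2 fold change in METTL7A embryos was 0.16. HNRNPUL2 had 10.04 and 10.7 CPM in METTL7A 8-cell against 16.2 and 15.4 CPM in METTL7A 2-cell libraries, and 8.87 and 7.75 CPM in Control 8-cell against 21.9 and 19.5 CPM in Control 2-cell libraries. It fell by 1.32 in Control embryos (SE 0.354, adjusted p = 0.0122) and had a log2 fold change of -0.60 in METTL7A embryos (adjusted p = 0.199). Both Control calls were lost without either Control 2-cell library (adjusted p = 0.0614 to 0.118). HNRNPU itself had 477 and 1056 CPM in METTL7A 8-cell against 613 and 723 CPM in METTL7A 2-cell libraries, and 403 and 371 CPM in Control 8-cell against 718 and 702 CPM in Control 2-cell libraries, and did not pass the test in either (adjusted p = 0.704 and 0.079). In Control embryos it passed without either METTL7A 8-cell library (adjusted p = 0.0393 and 0.0374).

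The comparison of METTL7A 8-cell with Control 8-cell embryos asks what the injected mRNA changes at genome activation. Of the 54 genes 2 rose, SNRPF and SRSF5, and 0 fell, where 0.737% of all genes tested rose and 4.55% fell. The log2 fold change was above 0 for 39 of the 54 genes, beside 55.7% of all genes, and its median was 0.42 beside 0.14 over all genes. At an unadjusted p under 0.05 there were 16 higher and 3 lower splicing factor genes, beside 10.6% and 16% of all genes. Both METTL7A libraries were above both Control libraries for 25 of the 54 genes and below them for 4, beside 28.1% and 22.4% of all genes.

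SNRPF, an Sm ring protein, had 826 and 757 CPM in METTL7A 8-cell and 313 and 348 CPM in Control 8-cell libraries. The groups did not overlap and replicates were close, and SNRPF was 2.40-fold higher (log2 fold change 1.26, SE 0.262, adjusted p = 0.0347). Its 2-cell levels were 175 and 166 CPM in METTL7A and 104 and 112 CPM in Control libraries, which did not pass the test (0.65 on the log2 scale, SE 0.259, adjusted p = 0.633). SRSF5, an SR protein that promotes exon inclusion, had 125 and 166 CPM in METTL7A 8-cell and 58.6 and 65.4 CPM in Control 8-cell libraries. It was 2.34-fold higher with no overlap (log2 fold change 1.23, SE 0.284, adjusted p = 0.0438). In 2-cell embryos it had 13.0 and 14.2 CPM in METTL7A and 9.45 and 8.57 CPM in Control libraries (log2 fold change 0.59, adjusted p = 0.713).

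These counts depended on single libraries. Without Control 8-cell replicate 1 fewer of all genes were called than with all 8 libraries. Among the splicing factor genes, those that rose were then SNRPB2 and SNRPF, and SRSF5 was no longer called. Without Control 8-cell replicate 2 there were 23, of which 19 rose and 4 fell, or 42.6% of the 54 genes beside 40.8% of all genes in the same fit. Without any of the other 6 libraries SNRPF and SRSF5 were not called. Calls over all genes fell in these fits too. Without a Control 2-cell library the total fell only slightly, but most calls of higher genes were lost while calls of lower genes increased. The median log2 fold change of the 54 genes was 0.64 without METTL7A 8-cell replicate 1, 0.19 without METTL7A 8-cell replicate 2 and 0.63 without Control 8-cell replicate 2, where that of all genes was 0.03, 0.03 and 0.28. Over these 8 fits the log2 fold change ran from 1.17 to 1.36 for SNRPF and from 1.02 to 1.42 for SRSF5. The summed level of the 54 genes was 25095 and 37091 CPM in METTL7A 8-cell and 15931 and 20597 CPM in Control 8-cell libraries. The summed genome activation markers were also higher in both METTL7A 8-cell libraries than in both Control 8-cell libraries. So were the summed oocyte markers, at 39755 and 36490 CPM against 13684.5 and 24719.5 CPM. The part of either set of markers in these differences was not tested.

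**Figure D4:**
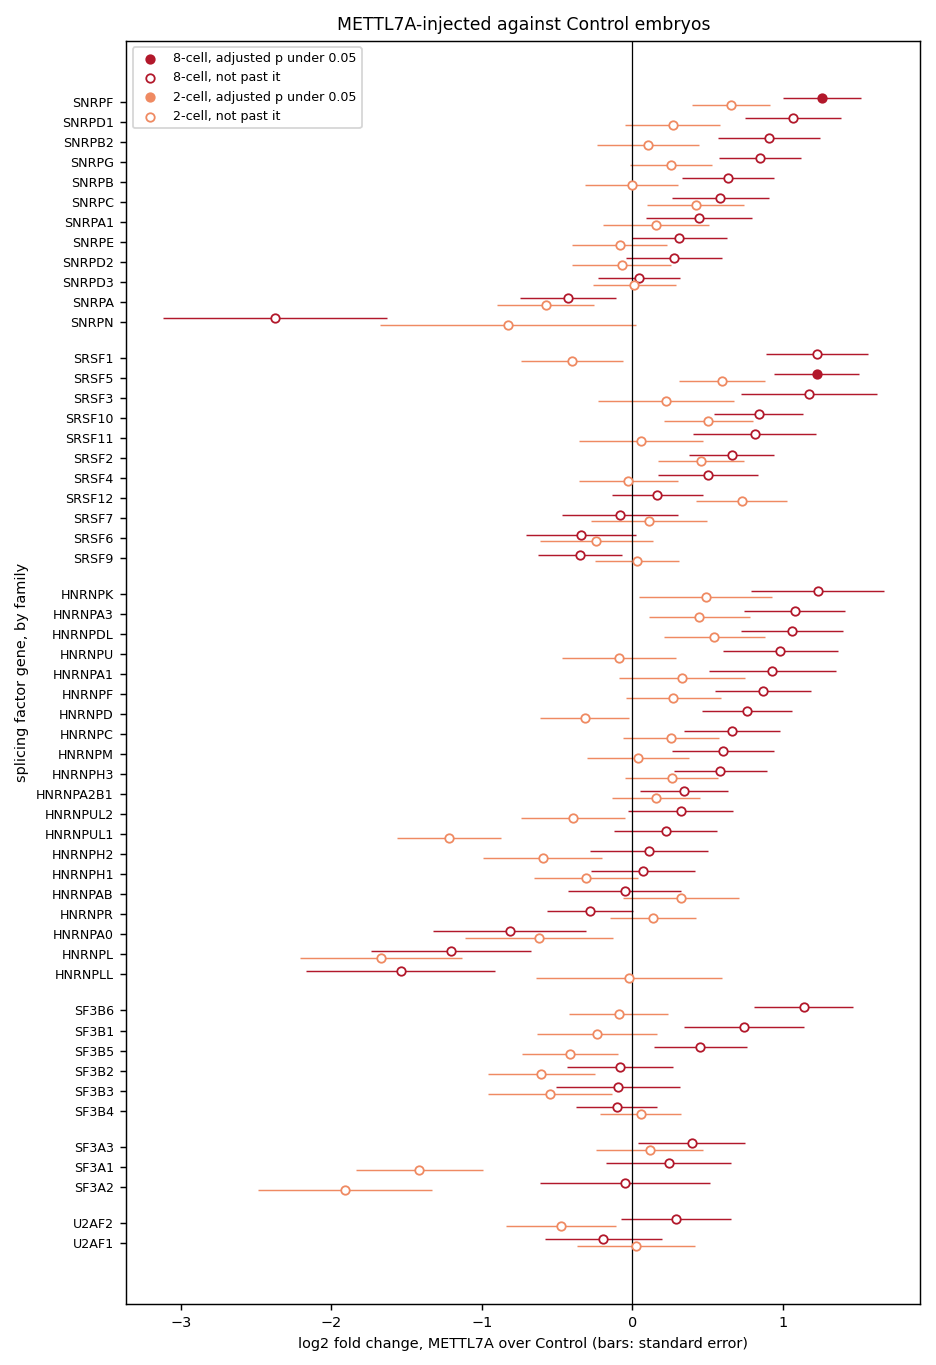
Log2 fold change of each of the 54 splicing factor genes, METTL7A over Control (x axis), by family (y axis), at the 8-cell stage (dark red) and the 2-cell stage (orange). Points are edgeR estimates from 2 libraries a group and bars are standard errors, and filled points passed an adjusted p of 0.05. Only SNRPF and SRSF5 at the 8-cell stage are filled, and SNRPN lies farthest to the left at that stage.

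Several genes with differences of similar size did not pass the test. SRSF3 had 3762 and 6419.9 CPM in METTL7A 8-cell and 1306 and 3195 CPM in Control 8-cell libraries (log2 fold change 1.18, SE 0.452, adjusted p = 0.142). SRSF1 had 159.5 and 285 CPM in METTL7A 8-cell and 81.2 and 109 CPM in Control 8-cell libraries (1.23, SE 0.341, adjusted p = 0.0658). SF3B6 had 1077 and 1454 CPM in METTL7A 8-cell and 549 and 600.0 CPM in Control 8-cell libraries (1.14, SE 0.328, adjusted p = 0.0724). In each of these 3 genes both METTL7A 8-cell libraries were above both Control 8-cell libraries. All 3 passed without Control 8-cell replicate 2, with log2 fold changes of 1.98 for SRSF3 (adjusted p = 0.00206), 1.47 for SRSF1 (0.0114) and 1.23 for SF3B6 (0.0178). SRSF3 was at 0.67 without Control 8-cell replicate 1, and without METTL7A 8-cell replicate 2 at 0.75. SNRPN went the other way, with 8.20 and 8.29 CPM in METTL7A 8-cell and 75.0 and 10.7 CPM in Control 8-cell libraries (log2 fold change -2.38, SE 0.745, adjusted p = 0.0892). Without Control 8-cell replicate 1 it was -0.39 (adjusted p = 0.639), and without Control 8-cell replicate 2 it was -3.16 and passed (adjusted p = 0.000107). In that library HNRNPL, the binder of CA-rich RNA, was also 3.24 times as high as in Control 8-cell replicate 2, HNRNPLL 4.196 times and HNRNPA0 2.25 times, while SF3A2, SRSF3 and SF3A1 were at 0.376, 0.409 and 0.428 times. HNRNPL was not called between stages in Control embryos (0.10 on the log2 scale), but without Control 8-cell replicate 1 it was at -1.001 and passed (adjusted p = 0.0401). Somatic markers were higher in Control 8-cell replicate 1 than in Control 8-cell replicate 2. Markers of genome activation (2684 and 7240 CPM) and oocyte markers (13684.5 and 24719.5 CPM) were lower. The part of these markers in the results was not tested.

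At the 2-cell stage, METTL7A and Control embryos did not differ in any splicing factor gene past the threshold. The count was 0 of 54 with DESeq2, where 0.577% of 24082 genes passed, and 0 with edgeR, where 0.0124% of all genes passed. At an unadjusted p under 0.05 there were 2 higher genes, SNRPF and SRSF12, and 4 lower genes, HNRNPUL1, SF3A1, SF3A2 and HNRNPL, 6 in all, beside 7.41% of all genes. SF3A1 had 46.0 and 72.9 CPM in METTL7A 2-cell and 156 and 161 CPM in Control 2-cell libraries, or -1.42 on the log2 scale (SE 0.423, adjusted p = 0.49). SF3A2 had 2.11 and 3.63 CPM in METTL7A 2-cell and 10.2 and 11.4 CPM in Control 2-cell libraries, or -1.91 on the log2 scale (SE 0.579, adjusted p = 0.499). HNRNPL had 6.54 and 9.92 CPM in METTL7A 2-cell and 24.4 and 28.1 CPM in Control 2-cell libraries, or -1.67 on the log2 scale (SE 0.537, adjusted p = 0.544). The groups did not overlap in any of these 3 genes, but neither did they in 36 of the 54 genes. Of all genes, 26.9% lay wholly higher and 30.5% wholly lower in METTL7A 2-cell libraries. None of the 3 differences passed the adjustment over all genes.

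The difference of the METTL7A effect between the stages is the same quantity as the difference of the stage effect between the treatments. It passed the test for 0 of 54 genes with DESeq2, beside 3.76% of 24082 genes, and for 0 with edgeR, beside 0.0124% of all genes. At an unadjusted p under 0.05 there were 6, SRSF1, HNRNPUL1, SF3A1, SF3B6, HNRNPD and SF3A2, all with a positive difference, beside 16% of all genes in either direction. SRSF1 had a difference of 1.63 on the log2 scale (SE 0.479, adjusted p = 0.2), with 159.5 and 285 CPM in METTL7A 8-cell and 38.9 and 31.3 CPM in METTL7A 2-cell libraries. In Control embryos it had 81.2 and 109 CPM at the 8-cell stage and 47.3 and 45.3 CPM at the 2-cell stage. The difference was 1.23 for SF3B6 (adjusted p = 0.253), 1.439 for HNRNPUL1 (adjusted p = 0.222) and 1.86 for SF3A2 (adjusted p = 0.301). Without Control 8-cell replicate 2, 11 genes passed, or 20.4% of the 54 beside 26.1% of all genes in that fit. They were the 6 above and SRSF3, HNRNPA3 and U2AF2 with a positive and SNRPN and HNRNPLL with a negative difference. In that fit the difference was 2.42 for SF3A1 (adjusted p = 0.00539), 2.75 for SF3A2 (0.0147) and 1.77 for SRSF3 (0.0145).

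Replicates of the 54 genes were closest in Control 2-cell embryos, where the median ratio of the higher to the lower library was 1.06 and no gene exceeded 1.5. The median ratio was 1.39 in METTL7A 8-cell, 1.35 in Control 8-cell and 1.24 in METTL7A 2-cell embryos. Over 2-fold lay 3 genes in METTL7A 8-cell, 7 in Control 8-cell and 0 in METTL7A 2-cell embryos. Over all genes, a chi-square between replicates, per degree of freedom, was 2.44 in Control 2-cell embryos. It was 43.0 in METTL7A 2-cell, 53.7 in METTL7A 8-cell and 324 in Control 8-cell embryos. The Control 2-cell pair enters the spread that all groups share. With its libraries summed, some Control stage calls and the 8-cell calls of SNRPF and SRSF5 were lost.

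The other genes of the splicing machinery, a list of 182 tested genes chosen by function, are given here by their counts, to be read beside the 23.1% of all genes that rose and 17.1% that fell in METTL7A embryos, and the 29.9% and 22.8% in Control embryos. Between stages 94 (51.6%) rose and 20 (11%) fell in METTL7A embryos, and 91 (50%) rose and 33 (18.1%) fell in Control embryos. Of 19 genes for SR-related proteins 14 rose in METTL7A and 13 in Control embryos, and 0 fell in either. Of the 10 LSM genes, whose products form rings like the Sm proteins, 7 rose and 1 fell in METTL7A and 8 rose and 1 fell in Control embryos. Of 21 genes for proteins associated with the U1 and U2 snRNPs 14 rose and 2 fell in METTL7A, and 13 rose and 4 fell in Control embryos. Genes of the U5 snRNP and the tri-snRNP were divided, with 6 higher and 5 lower of 18 in METTL7A and 7 higher and 8 lower in Control embryos. For the PRP19 complex and the catalytic steps, 16 of 35 genes rose and 2 fell in METTL7A, and 17 rose and 6 fell in Control embryos.

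The smaller lists were mixed as well, some with shares near those of all genes. Of 15 genes of snRNP assembly by the SMN complex 7 rose and 2 fell in METTL7A and 6 rose and 2 fell in Control embryos. Among 34 regulators of alternative splicing 13 rose and 5 fell in METTL7A, and 13 rose and 6 fell in Control embryos. For the minor spliceosome 5 of 8 rose and 1 fell in METTL7A, and 5 rose and 2 fell in Control embryos. Of 8 exon junction genes 5 rose and 2 fell under both treatments. Of 7 SR protein kinase genes 3 rose and 0 fell in METTL7A, and 2 rose and 1 fell in Control embryos. Of 7 SNRNP genes 4 rose and 0 fell in METTL7A, and 2 (28.6%) rose and 1 (14.3%) fell in Control embryos, which is near the shares of all genes.

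TRA2B, an SR-like binder of exonic enhancers, moved more than any of the 54. It had 2749.7 and 5774 CPM in METTL7A 8-cell against 9.16 and 9.25 CPM in METTL7A 2-cell libraries, and 684 and 2184 CPM in Control 8-cell against 6.97 and 5.97 CPM in Control 2-cell libraries. It rose by 8.85 in METTL7A and 7.79 in Control embryos on the log2 scale. PHF5A, a further subunit of SF3b, rose by 5.86 and 6.57 and was at most 2.79 CPM in any 2-cell library. CLK1, a kinase of SR proteins, and RSRC2, a protein rich in arginine and serine, rose by 5.76 and 5.52 in METTL7A embryos. TIA1, which helps U1 bind weak introns, and PPIL1, a spliceosomal cyclophilin, rose by 7.55 and 4.85 in Control embryos. The Control 8-cell libraries had 68.1 and 13.6 CPM of TIA1, with the high value in replicate 1, and its log2 fold change was 5.95 without that library and 8.24 without Control 8-cell replicate 2. For PPIL1 it was 4.11 without Control 8-cell replicate 1. TRA2B was at 8.38 in Control embryos without Control 8-cell replicate 1, at 6.67 without Control 8-cell replicate 2, and at 8.18 in METTL7A embryos without METTL7A 8-cell replicate 2. In METTL7A embryos CLK1 was at 5.13 without METTL7A 8-cell replicate 2 and PHF5A at 6.48 without METTL7A 2-cell replicate 1.

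The other splicing genes that fell most were LSM11 of the histone-processing U7 snRNP, CHERP, ARMC7, SART3, which recycles U4 and U6, and GEMIN4 of the SMN complex, with log2 fold changes of -3.46, -3.0001, -2.99, -2.81 and -2.77 in Control embryos. In METTL7A embryos they were KHDRBS1 and PTBP1, which are regulators of alternative exons, LSM11, SART3 and UPF3A, a factor of nonsense-mediated decay, with log2 fold changes of -2.701, -2.38, -2.36, -2.32 and -2.26. In Control embryos LSM11 and ARMC7 were at -4.41 and -3.82 without Control 8-cell replicate 2, and GEMIN4 at -3.45 without Control 8-cell replicate 1. PTBP1 had 38.1 and 47.2 CPM in METTL7A 8-cell against 177 and 267 CPM in METTL7A 2-cell libraries, and 58.1 and 51.9 CPM in Control 8-cell against 297 and 316 CPM in Control 2-cell libraries.

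Between METTL7A and Control embryos at the 8-cell stage, 4 (2.2%) of the 182 other splicing genes rose and 1 (0.549%) fell, beside 0.737% and 4.55% of all genes. At the 2-cell stage 0 changed, beside 0.0124% of all genes. NOVA1, a regulator known from neurons, had 20.3 and 22.8 CPM in METTL7A 8-cell and 4.89 and 6.10 CPM in Control 8-cell libraries (log2 fold change 1.97, SE 0.453, adjusted p = 0.0436). It was at most 0.133 CPM in any 2-cell library, and its log2 fold change between stages was 7.68 in METTL7A (8.38 without METTL7A 2-cell replicate 2) and 5.61 in Control embryos. RBM15, an RNA-binding partner of the RNA adenosine methylation complex, PRPF38A of the tri-snRNP and TARDBP, an hnRNP-like regulator, were 3.21-fold, 3.08-fold and 2.83-fold higher. GEMIN7 of the SMN complex fell by 1.89 (SE 0.414, adjusted p = 0.0402), with 15.6 and 12.2 CPM in METTL7A 8-cell and 68.7 and 34.8 CPM in Control 8-cell libraries. Of these 5 genes, 0 were called when any 1 of the 2-cell or METTL7A 8-cell libraries was left out. Without Control 8-cell replicate 1, 2 were called, PRPF38A and TARDBP, and without Control 8-cell replicate 2 all 5 were called. Over the whole list of 182, fewer genes were called without Control 8-cell replicate 1 and far more without Control 8-cell replicate 2. The same was so over all genes.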

How the data were processed

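PolyA RNA of whole embryos was converted to cDNA with the SMART-Seq v4 kit and made into libraries with Nextera XT, per the labels' protocols. This marks no strand, so antisense partners, close paralogues such as SNRPB and SNRPN, and processed pseudogenes may share reads. Per the submitters' processing notes, Trim Galore 0.6.10, FastQC, STAR 2.7.11b, Subread 2.0.6 and DESeq2 1.44.0 were used. The genome build is not given in the sources used here. The authors deposited whole-number counts per gene, not normalized. The table of inner cell mass and trophectoderm was not used here. A row that names no gene held 0.184% to 0.95% of the counts and was left out.

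The analysis used edgeR 4.0.16 and limma 3.58.1 under R 4.3.3, with TMM scaling, low-count filtering by filterByExpr (at least 10 counts, 15 in total), 1 coefficient for each of 4 groups, all 8 libraries sharing the estimate of the spread, and the robust quasi-likelihood test. P-values are 2-sided and adjusted by Benjamini-Hochberg over 16149 genes, with a threshold of 0.05. CPM uses TMM-scaled library sizes. A standard error is the absolute log2 fold change divided by the square root of the F statistic. The script was tested on simulated data for METTL7A 8-cell against Control 8-cell embryos. It called 1 of 100 genes changed 2-fold and 35 of 100 changed 4-fold, with 0 false calls. A gene that did not pass the test may therefore still differ. DESeq2 1.42.0, other scalings, no filter, only the groups compared, a replicate block, summed Control 2-cell libraries and each library left out were alternatives. Where a group is left with 1 library, that library is assumed to vary like the other groups.

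The members and lists were chosen with earlier results of these data known, and the 7 SNRNP genes were added to the other splicing genes after the data were seen. Genes were named by a rule: up to 8 largest called changes in each direction per comparison, all SF3A, SF3B and U2AF genes, the 2 SRSF, SNRP and HNRNP genes of highest mean CPM, SNRPB with SNRPN, and up to 5 other splicing genes in each direction. Further genes were named after their values were seen. A RefSeq gene table held 53 of the 54 symbols.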

Additional observations from a re-analysis of the deposited data

How the results depend on the processing

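The stage counts fell by up to 11 genes when a library was left out. In METTL7A embryos 35 splicing factor genes were called, and 25 to 39 without each library in turn, and in Control embryos 37 were called, and 26 to 41. With all 8 libraries, 40.2% of all genes were called in METTL7A and 52.7% in Control embryos. In the fits without a library this share moved over a wider range than that of the 54 genes, under both treatments. Of these calls, 25 in METTL7A and 26 in Control embryos held under all 15 alternatives. The counts between treatments at the 8-cell stage were unstable. They were 2 genes with edgeR, 1 with RLE scaling and 1 with scaling without METTL7A and LOC781439 (854, 605 and 1091 of all genes). With DESeq2 there were 9 (8 higher, 1 lower), without the low-count filter 8, and with only the groups compared 0 (2357, 2767 and 283 of all genes). Neither SNRPF nor SRSF5 was called with the Control 2-cell libraries summed. Leaving out single libraries moved the count too. At the 2-cell stage the count of 0 became 1 without the filter and 6 with only the groups compared (11.1% of the 54, beside 7.17% of all genes), and it was 0 without any library. The difference between stages gave 0 genes, and 0 to 11 without each library in turn. The cause was not tested. No gene named by the rule and called changed sign under any alternative. HNRNPL, not called between stages in Control embryos, changed sign and was called without Control 8-cell replicate 1. No pairing of the samples by replicate number was visible (correlations of deviations -0.0275 to 0.0586). The labels do not say whether samples of the same number belong together. With the number as a replicate block the counts were 2, 0, 37, 35 and 0, as without it. Scaling without METTL7A and LOC781439 moved the median log2 fold change of all genes at the 8-cell stage to -0.09, beside 0.14, and that of the 54 genes to 0.18, beside 0.42. The 2 libraries a group limit every comparison, and SNRPN at the 2-cell stage rests on 9 to 23 counts a library.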
